A study of Homo sapiens with 12 samples.

Results

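Cells given a control siRNA were set against cells given a control microRNA precursor, which are the reference transfections of a study on miR-101 and EZH2. The cells, UM-UC-3, are an established line from a human bladder cancer. Of the 12 arrays in the series, 6 were chosen by their titles: 3 of the control siRNA and 3 of the control precursor. The other groups, used here only for reference, were 3 arrays of an EZH2 siRNA and 3 of a miR-101 precursor. All 4 groups received RNA at 50 nM for 72 h, so no group was left untransfected and neither control can be set against untreated cells. Neither the sequence nor the maker of either control RNA is given in the sources used here, and 1 cell line was used. The control siRNA arrays lay on the chip of the EZH2 siRNA arrays and the control precursor arrays on the chip of the miR-101 arrays. For a comparison of the controls alone, chip and control RNA cannot be told apart.

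A control siRNA and a control precursor are short double-stranded RNAs designed to match no gene of interest. Both can still be loaded into Argonaute proteins, bind transcripts through partial pairing of their seed, occupy the shared small RNA machinery, and, in some cells, be sensed as foreign RNA. The pathways compared below are ones that cells commonly turn up or down under stress: the NF-kB pathway, in which the inhibitor NFKBIA holds the transcription factor in the cytoplasm and is itself a target of it; the NRF2 pathway, which drives genes for antioxidant defence and iron storage; the heat shock response; and the SREBP pathway of sterol and fatty acid synthesis.

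Median bead signal on the 6 control arrays was 86.7 to 100.1, and 15453 to 16377 of 46713 probes per array were detected. Precision is limited by having 3 arrays a group. Transfections were made in triplicate, per the design text, which does not tell whether cultures were independent, and the spread behind each p-value may therefore be technical. The epithelial markers EPCAM, CLDN4 and CLDN7 were detected on none of the 6 arrays, and CDH1 on 1 control precursor array. The urothelial markers UPK1A, UPK2, UPK3A, KRT5, KRT19, KRT20 and GATA3 were also detected on none of the 6. UPK1B, KRT8, KRT18, PPARG and FOXA1 of the urothelial list were detected on all 6, as were the junction genes CLDN1 and TJP1. Of the mesenchymal markers, CDH2 and ZEB1 were detected on all 6, and FN1 did not pass the detection filter. The line thus carried part of the urothelial marker set.

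The controls differed at many genes by small amounts. Of 13528 genes tested, 3823 (28.3%) had an adjusted p under 0.05 in limma, 1901 of them higher (14.1%) and 1922 lower (14.2%) with control siRNA. Only 254 (1.88%) were called and at least 2-fold apart, 161 higher and 93 lower. A change of at least 4-fold was seen in 17 genes that were higher and 10 that were lower. The median absolute log2 difference over all genes was 0.10, and the 95th percentile was 0.72. Arrays of the groups did not overlap for 6478 genes (47.9%). The 95% interval of the difference lay within 2-fold for 12835 genes (94.9%), including 3178 of those called, and within 1.41-fold for 9969 (73.7%). Of 9705 genes not called, 48 had an interval that reached 2-fold. With median scaling in place of quantile normalization there were 2868, of which 59.8% were higher, against 49.7%.

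The arrays separated by control. Correlation of normalized log2 intensities was 0.995 to 0.999 within a control group and 0.975 to 0.984 between the groups. Of the variance over the 6 control arrays, 79.9% lay between the groups. Calls were rare among dim genes: in 5 equal bins of brightness, dimmest first, 3.22%, 23.1%, 36.3%, 42% and 36.7% were called. Median differences in the bins were -0.03 to 0.00, which quantile normalization itself holds near 0.

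**Figure D1:**
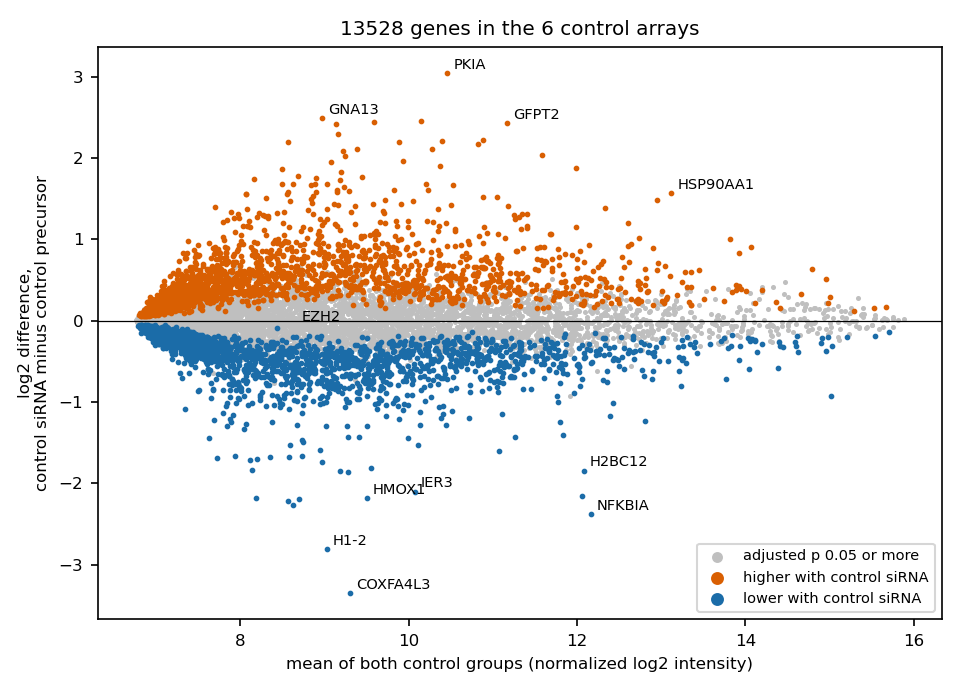
Each point is a gene: the x axis gives the mean normalized log2 intensity over both control groups and the y axis the log2 difference, control siRNA minus control precursor. Orange genes were higher and blue genes lower with control siRNA at an adjusted p under 0.05. The points spread to 3.04 (PKIA) above and to -3.35 (COXFA4L3) below 0, and EZH2 lies near 0.

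EZH2, the Polycomb methyltransferase the study targets, was level between the controls within an interval well inside 2-fold. Its log2 intensity was 8.57, 8.53 and 8.76 with control siRNA, against 8.88, 8.79 and 8.36 with control precursor. The groups overlapped, and the difference was -0.06 (95% interval -0.34 to 0.23, adjusted p 0.788). A second probe for it was at -0.24. Of 11 PRC2 genes tested, AEBP2 (0.78) and PHF1 (0.32) were higher and JARID2 (-0.61) was lower (27.3% called, against 28.3% of all genes). PHF1 was not called when any 1 of the 6 replicates was left out. JARID2 was not called with median scaling (adjusted p 0.0852).

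The largest rise was in PKIA, an inhibitor of protein kinase A. It stood at 12.05, 11.86 and 12.03 with control siRNA, against 8.90, 8.94 and 8.98 with control precursor, an 8.24-fold difference (log2 3.04, SE 0.110, adjusted p 3.52e-07). GNA13, a heterotrimeric G protein subunit, stood at 10.10, 10.29 and 10.25 with control siRNA, against 7.79, 7.86 and 7.52 with control precursor (5.61-fold, adjusted p 1.80e-05). GFPT2, which makes glucosamine 6-phosphate for the hexosamine pathway, stood at 12.42, 12.38 and 12.35 with control siRNA, against 10.07, 9.99 and 9.82 with control precursor (5.37-fold, adjusted p 3.52e-07). In each of these genes all control siRNA arrays lay above all control precursor arrays, which the rule that chose the largest rises required. The rest of the 15 largest rises were 4.26-fold to 5.46-fold. They included TXNDC5, a disulfide isomerase of the endoplasmic reticulum (2.45), and COMMD10 (2.44). FSTL1, a secreted glycoprotein (2.42), RDX, which links actin to the membrane (2.29), and RDH11, a retinol dehydrogenase (2.21), were also among them. So were the ubiquitin ligase PJA2 (2.21), ICMT, which methylates prenylated proteins (2.20), RIMOC1 (2.19) and ATP6AP1, which belongs to the vacuolar ATPase (2.17). The last were the adhesion molecule ALCAM (2.11), the kinase MAP4K2 (2.11) and SNRPC, a U1 small nuclear ribonucleoprotein subunit (2.09). A second, dim ICMT probe gave 0.06.

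The largest fall was in COXFA4L3, a mitochondrial protein related to a cytochrome oxidase subunit. It stood at 7.60, 7.55 and 7.72 with control siRNA, against 10.91, 10.75 and 11.26 with control precursor, 10.2-fold lower (log2 -3.35, SE 0.135, adjusted p 6.54e-07). ADM, the vasodilator peptide adrenomedullin, stood at 11.26, 10.71 and 10.96 with control siRNA, against 13.15, 13.14 and 13.13 with control precursor (4.47-fold lower, adjusted p 5.04e-06). ANKRD1, a target of the YAP and TEAD factors, stood at 7.16, 7.08 and 7.07 with control siRNA, against 9.21, 9.01 and 9.61 with control precursor (4.52-fold lower, adjusted p 5.24e-06). No array of the control siRNA reached the lowest control precursor array in these genes, which the rule that chose the largest falls also required. The small nucleolar RNA SNORD46 (-2.26), UNKL (-2.19), the matrix protein TGFBI (-1.85), NCR3LG1, a ligand of the natural killer receptor NKp30 (-1.84), and CBX6, a Polycomb chromodomain protein (-1.81), were also lower. The remaining genes of the 15 largest falls are H2BC12L, a histone gene outside the lists, and members of the histone, NF-kB and NRF2 lists. A second, dim UNKL probe gave 0.02.

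**Figure D2:**
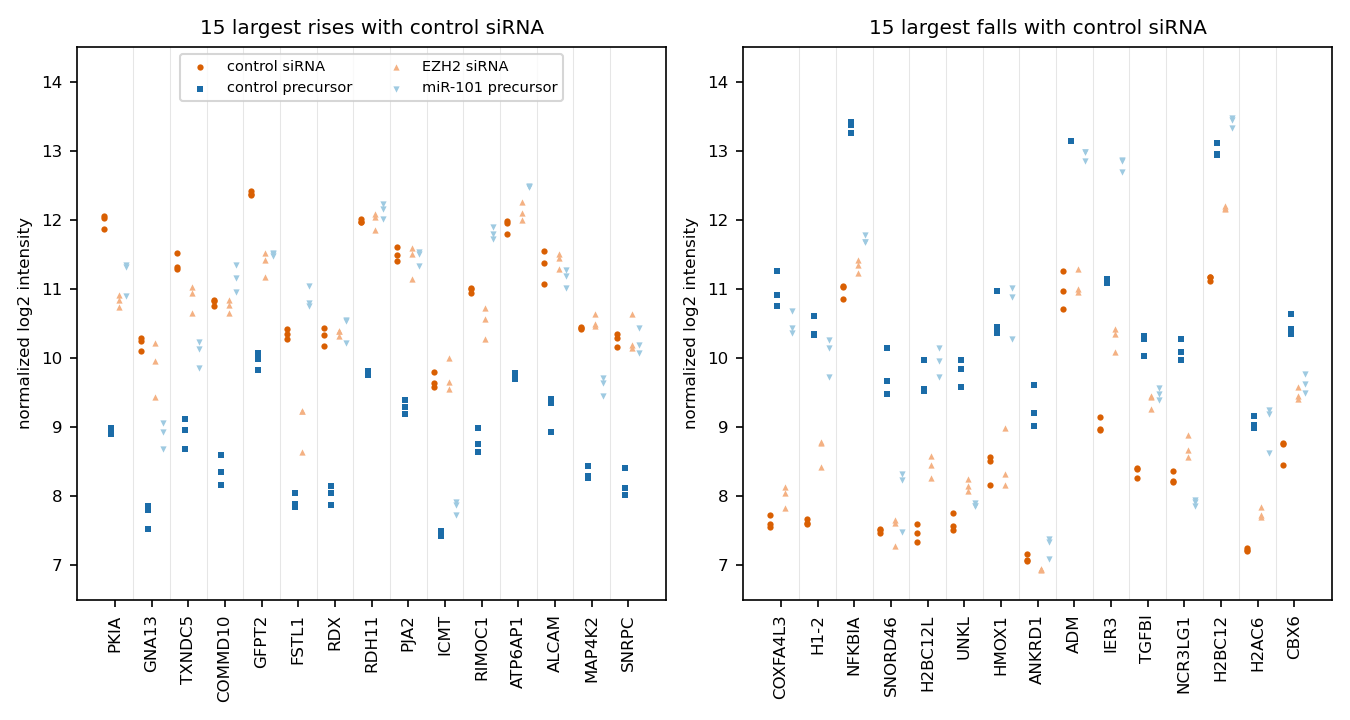
Normalized log2 intensity (y axis) of the 15 genes with the largest rise (left) and the 15 with the largest fall (right) with control siRNA, with a point for each of 3 arrays per group. The control siRNA circles and the control precursor squares do not overlap in any gene, because only non-overlapping genes were eligible. The triangles show the treated arrays, EZH2 siRNA on the chip of the control siRNA and miR-101 precursor on the chip of the control precursor.

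NF-kB feedback and inflammatory genes were lower with control siRNA. Of 24 tested members of a list of 30, 13 were lower and 0 higher, and 9 of the 13 were at least 2-fold lower. The called share was 54.2%, against 28.3% of all genes tested. The median log2 difference was -0.46, against 0.00 over all genes. NFKBIA, the main inhibitor of NF-kB, stood at 11.04, 11.03 and 10.85 with control siRNA, against 13.37, 13.26 and 13.42 with control precursor (5.19-fold lower, adjusted p 1.31e-07). IER3, an early stress gene, stood at 8.96, 8.97 and 9.14 with control siRNA, against 11.15, 11.13 and 11.08 with control precursor (4.28-fold lower, adjusted p 7.25e-07). The groups of both genes were far apart and tight. NFKBIZ, a nuclear inhibitor family member (-1.69), and TNFAIP3, the deubiquitinase A20 that ends the signal (-1.13), were lower as well. So were the ubiquitin ligase BIRC3 (-1.44), TNIP1, a partner of A20 (-0.58), and the subunit NFKB1 (-0.44). Among secreted factors CCL20 (-1.69), CXCL2 (-1.67), CXCL1 (-1.21), CXCL8 (-0.69) and the growth factor CSF2 were lower. CSF2 was detected on no control siRNA array, so its difference is a bound, at least 2.10-fold. The subunits RELA (0.06) and REL (-0.04) and the chemokine CCL2 (0.27) were not called. A second, dim NFKBIZ probe gave -0.01. IL6, IL1A, IL1B, ICAM1, PTGS2 and TNFAIP2 did not pass the detection filter.

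Promoters of 2 NF-kB list genes, 2 immediate early genes and 2 lipid genes are shown. In each list they had the largest absolute differences among genes named by rule and present in the promoter table. Other lists, such as the NRF2 and mitotic lists, also moved largely one way and were not searched. Each is the 250 bases before the gene's start, 5' to 3', from RefSeq (GRCh38.p14), with capitals at matches to any of 5 motifs searched on both strands: the kappaB consensus, the CArG box bound by SRF, the AP-1 site TGANTCA, the sterol element TCACNCCAC and CCAAT. NFKBIA lies on the minus strand at chr14:35404750-35404999 and holds a kappaB match 81 to 72 bases before its start. NFKBIZ lies on the plus strand at chr3:101827740-101827989, with a kappaB match at 223 to 214.
NFKBIA: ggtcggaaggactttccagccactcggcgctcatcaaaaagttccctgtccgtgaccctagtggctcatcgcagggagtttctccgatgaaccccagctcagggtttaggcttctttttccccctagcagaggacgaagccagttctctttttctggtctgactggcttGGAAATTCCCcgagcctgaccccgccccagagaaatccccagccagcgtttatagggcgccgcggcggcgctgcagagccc
NFKBIZ: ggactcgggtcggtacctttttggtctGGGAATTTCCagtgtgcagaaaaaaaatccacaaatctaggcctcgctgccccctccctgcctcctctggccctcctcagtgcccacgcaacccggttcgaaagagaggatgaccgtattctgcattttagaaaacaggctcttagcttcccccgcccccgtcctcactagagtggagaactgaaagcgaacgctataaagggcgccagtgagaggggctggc
The kappaB consensus was found in 8 of the 12 promoters (66.7%) matched among the 13 lower NF-kB list genes, against 9.57% of 27305 promoters in the table and 11.7% of those of 9458 genes tested. The list was made of known NF-kB targets, so this share describes the list. A match is not a bound site. IER3 is named only, without a promoter.

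Immediate early genes were mostly lower too. Of 20 tested members of a list of 25, 13 were lower and 1 higher, with a median of -0.36. The called share was 70%, against 28.3% of all genes tested. CCN1, a matricellular protein, stood at 10.45, 10.29 and 10.09 with control siRNA, against 11.86, 11.90 and 11.86 with control precursor (3.03-fold lower, adjusted p 4.19e-06). ZFP36, which destabilizes cytokine transcripts (-0.81), SRF, the serum response factor (-0.72), JUND (-0.68), CCN2 (-0.63), JUN (-0.58), KLF10 (-0.50) and FOS (-0.41) were lower. EGR1 was the exception, at 10.07, 10.02 and 10.08 with control siRNA, against 9.30, 9.03 and 9.11 with control precursor (1.88-fold higher, adjusted p 9.18e-06). EGR1 thus moved opposite to the 13 lower members. The EGR1 promoter (plus strand, chr5:138465229-138465478) holds 2 CArG boxes, 105 to 96 and 83 to 74 bases before the start, and that of ZFP36 (plus strand, chr19:39406597-39406846) holds none of the 5 motifs in this window.
EGR1: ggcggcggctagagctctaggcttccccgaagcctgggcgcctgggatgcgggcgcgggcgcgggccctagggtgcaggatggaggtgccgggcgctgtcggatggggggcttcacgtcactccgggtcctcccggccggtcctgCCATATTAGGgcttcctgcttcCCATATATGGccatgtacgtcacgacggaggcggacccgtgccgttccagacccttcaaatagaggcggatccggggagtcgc
ZFP36: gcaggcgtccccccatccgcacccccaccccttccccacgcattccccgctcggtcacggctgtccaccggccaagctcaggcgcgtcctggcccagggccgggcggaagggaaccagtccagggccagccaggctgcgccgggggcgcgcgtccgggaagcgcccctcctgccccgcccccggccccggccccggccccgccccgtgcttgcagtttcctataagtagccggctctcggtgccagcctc
CArG boxes were found in 1 of 10 promoters matched among the 13 lower genes (10%), against 1.14% of all promoters and 1.08% of those of genes tested. The AP-1 site was found in 0 of the 10, against 6.6% and 4.07%. With 10 promoters of a list chosen by function, these shares describe the list only. Among MAPK feedback genes 3 of 16 were higher and 3 lower (37.5% called, against 28.3% of all genes tested). The phosphatases DUSP1 (-0.76) and DUSP14 (-0.59) were lower, and PHLDA1 (0.51) was higher.

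NRF2 and iron storage genes were lower with control siRNA. Of 21 tested members of 22, 14 were lower and 0 higher, and the median was -0.43. The called share was 66.7%, against 28.3% of all genes tested. HMOX1, the haem oxygenase that degrades haem, stood at 8.51, 8.16 and 8.56 with control siRNA, against 10.97, 10.45 and 10.36 with control precursor (4.54-fold lower, SE of the log2 difference 0.268, adjusted p 0.000336). Both ferritin chains were lower. FTH1 stood at 9.54, 9.36 and 9.14 with control siRNA, against 10.75, 10.86 and 11.03 with control precursor (2.89-fold lower, adjusted p 1.56e-05). FTL, among the brightest genes, stood at 14.52, 14.58 and 14.57 with control siRNA, against 15.40, 15.53 and 15.50 with control precursor (1.89-fold lower, adjusted p 1.12e-06). All HMOX1, FTH1 and FTL arrays separated by group, as did those of 47.9% of all genes tested. Lower genes also included the thioredoxin reductase TXNRD1 (-0.75), the quinone reductase NQO1 (-0.73) and the glutathione synthesis subunits GCLM (-0.70) and GCLC (-0.51). Thioredoxin (TXN, -0.59) and sulfiredoxin (SRXN1, -0.53) followed. The factor itself, NFE2L2, was at -0.43 and not called, and its inhibitor KEAP1 was lower (-0.25). The transferrin receptor TFRC, which imports iron, was also lower (-0.81).

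Replication-dependent histone genes made up a compact group of falls. Of 27 histone genes tested, 16 were lower, 3 higher and 5 at least 2-fold lower, with a median of -0.14. The called share was 70.4%, against 28.3% of all genes tested. The linker histone H1-2 stood at 7.67, 7.59 and 7.61 with control siRNA, against 10.35, 10.34 and 10.61 with control precursor (log2 -2.81, adjusted p 2.21e-06). H2BC12 stood at 11.12, 11.18 and 11.17 with control siRNA, against 12.93, 12.95 and 13.11 with control precursor (3.58-fold lower, adjusted p 1.31e-07). H2AC6 (-1.84), H2BC5 (-1.74) and H2AC18 (-1.66) were the other large falls, and H2BC12L, outside the list, was at -2.21. The 3 higher genes were variants made outside S phase: H3-3B (0.37), H2AZ1 (0.22) and H2AZ2 (0.22). Histone genes are near-identical copies, and a probe may bind more than 1 of them.

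Heat shock and chaperone genes were higher. Of 19 tested, 10 were higher and 2 lower, with a median of 0.35 (63.2% called, against 28.3% of all genes tested). HSP90AA1, the inducible cytosolic HSP90, stood at 13.69, 13.89 and 14.13 with control siRNA, against 12.55, 12.43 and 12.02 with control precursor (2.97-fold higher, adjusted p 5.17e-05). DNAJB1, a cofactor of HSP70, stood at 9.38, 9.37 and 9.69 with control siRNA, against 8.27, 8.17 and 7.94 with control precursor (2.56-fold higher, adjusted p 9.41e-05). Both genes separated fully by group, as did 47.9% of all genes tested. The small heat shock protein HSPB1 (1.01) and the HSP70 genes HSPA1A (0.76) and HSPA1B (0.58), which are near-identical copies, were higher. The factor HSF1 (-0.41) and the chaperonin subunit CCT5 (-0.39) were lower. A second, dim HSP90AA1 probe gave 0.11. In the unfolded protein and integrated stress list 7 of 26 genes were higher and 5 lower (3 lower without control precursor replicate 2). Of this list 46.2% were called, against 28.3% of all genes tested. Secretory chaperones and serine synthesis enzymes were among the higher genes: CRELD2 (0.99), PSAT1 (1.04) and PHGDH (0.62). PPP1R15A, a stress-induced phosphatase subunit (-0.86), was lower. The amino acid transporter chains SLC7A5 (-0.95) and SLC3A2 (-0.80), which form 1 carrier, were both lower.

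Lipid synthesis genes were called only as higher, though most were not called. Of 31 tested, all members of the list, 12 were higher, 0 lower and 19 not called, with a median of 0.21. The called share was 38.7%, against 28.3% of all genes tested. ACLY, which makes cytosolic acetyl-CoA, stood at 11.56, 11.96 and 12.20 with control siRNA, against 10.77, 10.69 and 10.37 with control precursor (2.45-fold higher, adjusted p 0.00033). IDI1 (0.86), DHCR7 (0.83), SC5D (0.67), MSMO1 (0.56), CYP51A1 (0.50) and HMGCS1 (0.47) are enzymes of the sterol pathway. The factor SREBF1 (0.85), the fatty acid synthase FASN (0.76) and the desaturases SCD (0.72) and FADS1 (0.40) were also higher. SREBF2, at -0.13, was not called. The ACLY promoter (minus strand, chr17:41919023-41919272) holds CCAAT 65 to 61 and 23 to 19 bases before the start, and that of IDI1 (minus strand, chr10:1056705-1056954) holds none of the 5 motifs.
ACLY: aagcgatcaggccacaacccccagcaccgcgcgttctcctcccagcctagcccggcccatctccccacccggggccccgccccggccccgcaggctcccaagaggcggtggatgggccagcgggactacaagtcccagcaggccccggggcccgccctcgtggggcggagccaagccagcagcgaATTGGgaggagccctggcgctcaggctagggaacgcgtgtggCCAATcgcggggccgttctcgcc
IDI1: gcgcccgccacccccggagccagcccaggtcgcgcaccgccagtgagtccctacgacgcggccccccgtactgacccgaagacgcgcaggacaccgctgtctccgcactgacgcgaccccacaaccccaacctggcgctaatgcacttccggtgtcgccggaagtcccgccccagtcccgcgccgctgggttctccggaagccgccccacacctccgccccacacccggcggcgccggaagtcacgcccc
CCAAT was found in 7 of 11 promoters matched among the 12 higher genes (63.6%), against 33% of all promoters and 35.8% of those of genes tested. The share was similar, 6 of 10 (60%), among the lower immediate early genes, and 1 of 12 (8.33%) among the lower NF-kB list genes. The sterol element was found in 0 of the 11, against 0.875%.

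Mitotic genes were slightly higher and replication genes were split. Of 45 G2 and mitosis genes tested, 21 were higher and 1 lower, with a median of 0.24. The called share was 48.9%, against 28.3% of all genes tested. AURKA, a mitotic kinase, stood at 11.39, 11.37 and 11.46 with control siRNA, against 10.72, 10.83 and 10.71 with control precursor (1.57-fold higher, adjusted p 4.85e-05). The gene PRC1, a spindle midzone protein (1.07), the kinesins KIF11 (0.94) and KIF20A (0.76) and the spindle protein ASPM (0.71) had larger differences. The phosphatase CDC25B was lower (-0.59), and cyclin B1 (CCNB1, -0.25) was not called. Of 45 S phase genes 5 were higher (2 without control siRNA replicate 3 or control precursor replicate 3, 3 without control siRNA replicate 2 or control precursor replicate 2), led by the polymerase delta subunit POLD3 (1.33), and 4 were lower. The lower ones were the factors E2F1 (-0.85) and E2F2 (-0.44), cyclin E1 (CCNE1, -0.57) and MCM10 (-0.43). E2F2 and MCM10 were not called with median scaling (adjusted p 0.0554 and 0.0532). In the S phase list 20% were called, against 28.3% of all genes tested. Of 27 CDK inhibitor and p53 response genes 4 were higher and 5 lower (33.3% called). The CDK inhibitor CDKN1A stood at 9.89, 9.80 and 9.80 with control siRNA, against 10.94, 10.82 and 10.92 with control precursor (2.09-fold lower, adjusted p 2.27e-06). The growth arrest genes GADD45A (-0.79) and GADD45B (-0.38) were lower, and the p53 target ZMAT3 (0.68) was higher. Of 16 BCL2 family genes 5 were lower, among them the pro-apoptotic BID (-0.95), BAX (-0.76) and BAK1 (-0.43) and the pro-survival BCL2L2 (-0.74), and BCL2 was higher (0.32). Of this family 37.5% were called, against 28.3% of all genes tested.

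**Figure D3:**
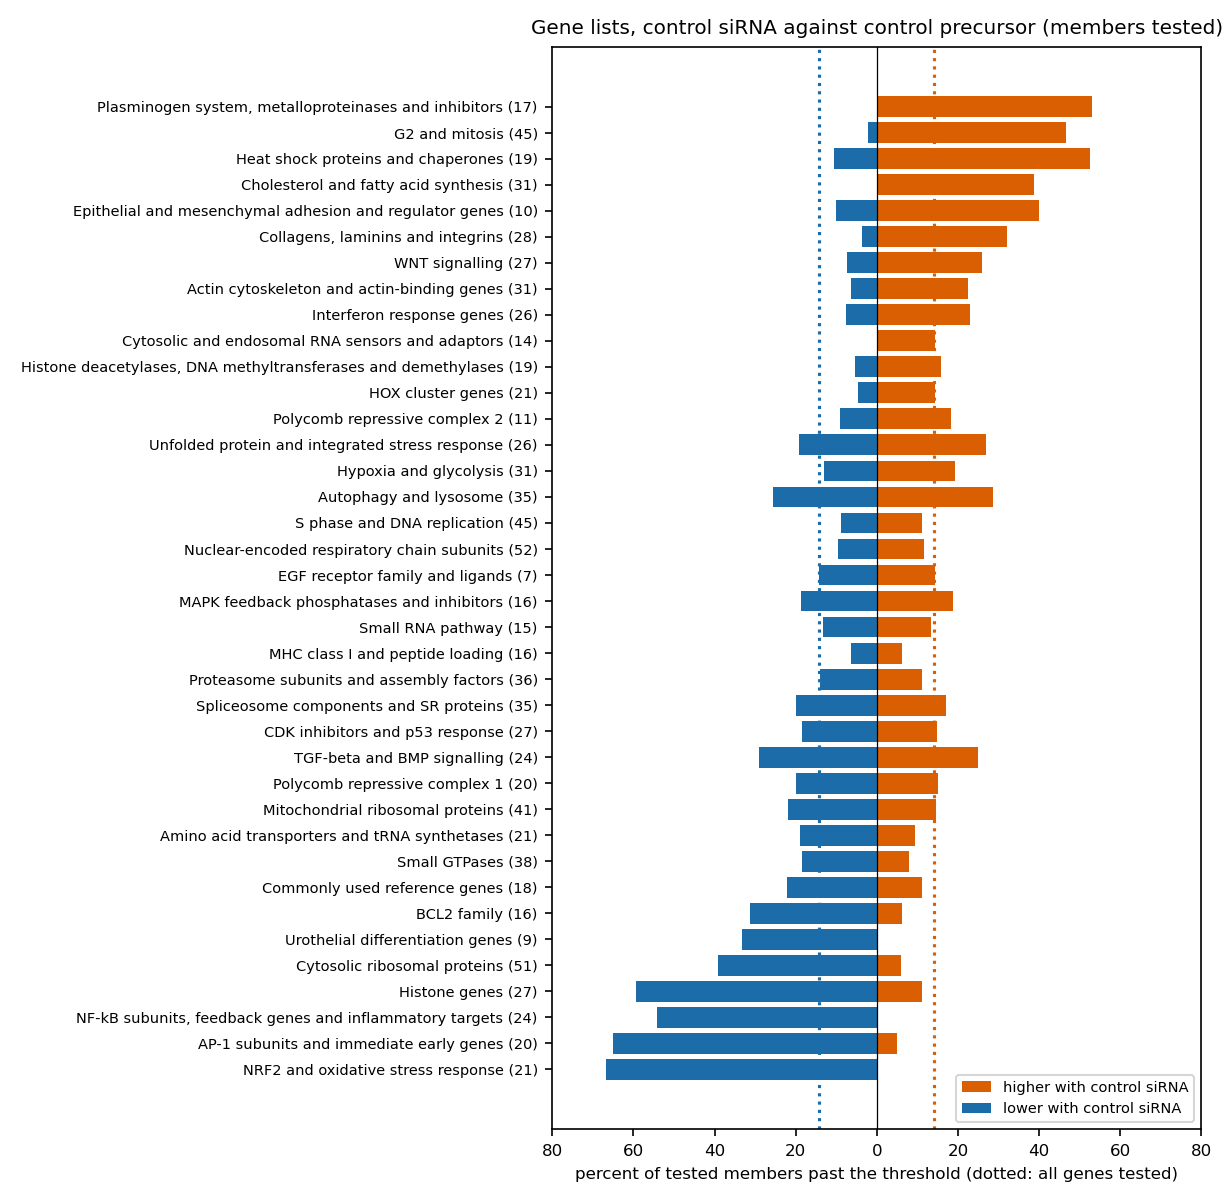
Bars give the percent of tested members of each gene list that were higher (right, orange) or lower (left, blue) with control siRNA at an adjusted p under 0.05, with the number tested in brackets. Dotted lines mark the 14.1% and 14.2% of all genes called in each direction. The NRF2 list has 14 of 21 lower and the plasminogen and metalloproteinase list 9 of 17 higher, both with 0 the other way.

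Ribosomal protein genes were lower by small amounts. Of 51 tested, 20 were lower and 3 higher, with a median of -0.16 (45.1% called, against 28.3% of all genes tested). RPL12, near the top of the intensity range, stood at 14.41, 14.49 and 14.40 with control siRNA, against 14.82, 14.81 and 14.83 with control precursor (1.31-fold lower, adjusted p 0.000131). RPL34 (-1.20), RPL28 (-1.03) and RPL37 (-0.82) had larger differences. Between 12 and 16 were lower when a replicate was left out, with 12 without control siRNA replicate 3 and without control precursor replicate 3. The higher ones numbered 0 without control siRNA replicate 1 or control precursor replicate 1 or 2, and 1 without control siRNA replicate 2 or 3. Ribosomal genes have many pseudogene copies that a probe may also bind. Mitochondrial ribosomal genes gave 6 higher and 9 lower of 41, respiratory chain genes 6 and 5 of 52, proteasome genes 4 and 5 of 36, and spliceosome genes 6 and 7 of 35. The called shares were 36.6%, 21.2%, 25% and 37.1% in that order, against 28.3% of all genes tested. In the brightest of 5 brightness bins, where the median levels of these lists lie, 36.7% were called. With a replicate left out, the lower genes numbered 2 to 7 in the mitochondrial ribosomal list (fewest without control siRNA replicate 2), 2 to 5 in the respiratory chain list (without control siRNA replicate 2 or control precursor replicate 3), 2 to 5 in the proteasome list (without control siRNA replicate 3) and 4 to 6 in the spliceosome list (without control siRNA replicate 2). The higher genes numbered 3 in the mitochondrial ribosomal list without control siRNA replicate 2 or control precursor replicate 1 or 2, and 3 in the respiratory chain list without control siRNA replicate 1 or control precursor replicate 1 or 2. Median scaling gave 6 higher and 2 lower mitochondrial ribosomal genes, 2 and 3 respiratory chain genes, and 2 and 1 proteasome genes. In the respiratory chain NDUFV2 (0.90) and NDUFA6 (0.73) of complex I were higher and cytochrome c (CYCS, -1.05) was lower.

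Autophagy and lysosome genes were called often but in both directions, 10 higher and 9 lower of 35. The called share was 54.3%, against 28.3% of all genes tested. ATP6AP1 stood at 11.79, 11.99 and 11.95 with control siRNA, against 9.78, 9.76 and 9.69 with control precursor (4.49-fold higher, adjusted p 1.72e-07). LAMP2, a lysosomal membrane protein (1.76), MAP1LC3B, the ATG8-family protein LC3B (1.04), and the cholesterol exporter NPC1 (1.02) were higher. The autophagy receptor SQSTM1 (-1.40), the galactosidase GLA (-1.14), the proton pump subunit ATP6V0D1 (-1.01) and the sialidase NEU1 (-0.86) were lower. A second LAMP2 probe gave -0.21, the opposite sign.

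Plasminogen system genes and metalloproteinases were more often higher. Of 17 plasminogen system and metalloproteinase genes 9 were higher and 0 lower, with a median of 0.21. The called share was 52.9%, against 28.3% of all genes tested. The collagenase MMP1 stood at 10.42, 9.84 and 10.07 with control siRNA, against 8.40, 8.25 and 8.21 with control precursor (3.55-fold higher, adjusted p 1.93e-05). The urokinase PLAU (0.60), the inhibitor SERPINB2 (0.57) and the membrane proteases ADAM9 (0.76) and ADAM10 (0.68) were also higher. Of 28 collagens, laminins and integrins 9 were higher and 1 lower (35.7% called, against 28.3% of all genes tested). The higher ones were led by the integrin ITGA2 (1.73) and the laminin chain LAMA5 (1.33). The lower one was not called without control siRNA replicate 1 or 2 or control precursor replicate 2. Of 10 epithelial and mesenchymal genes tested 4 were higher and 1 lower (50% called). The tight junction scaffold TJP1 (1.55), the cadherins CDH11 (0.87) and CDH2 (0.45) and the repressor ZEB2 (0.52) were higher. The repressor SNAI2 was detected on no control siRNA array and was at least 1.04-fold lower, a call lost when any 1 of the 6 replicates was left out. In the WNT list 7 of 27 were higher and 2 lower (33.3% called, against 28.3% of all genes tested). Beta-catenin, CTNNB1, stood at 9.58, 9.64 and 9.79 with control siRNA, against 8.22, 8.04 and 7.75 with control precursor (3.17-fold higher, adjusted p 2.73e-05). The other detected CTNNB1 probes gave 1.19 and, for a dim one, 0.01. The secreted proteins DKK3 (1.68) and SFRP1 (0.84) were higher, and the WNT antagonist DKK1 (-0.59) was lower. In the TGF-beta and BMP list 6 of 24 were higher and 7 lower (54.2% called). The inhibitors of differentiation ID2 (-1.30), ID1 (-1.28) and ID3 (-0.92), all BMP targets, were lower together, as were SMAD3 (-0.97), SMAD6 (-0.31) and SMAD7 (-0.26). The receptors BMPR1A (0.76) and BMPR2 (0.54) were higher.

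Of the RNA sensors 14.3% were called and of the interferon response genes 30.8%, against 28.3% of all genes tested. Interferon response genes were called in both directions. Of 14 RNA sensors and adaptors, 2 were higher, TRAF3 (0.30) and the antiviral protein ZC3HAV1 (0.27), and 0 lower. With a replicate left out 1 to 3 were higher, with 1 without control siRNA replicate 2 or 3 or control precursor replicate 1 or 3. Of 26 interferon response genes 6 were higher and 2 lower, with a median of 0.08. IRF9, part of the interferon-activated factor ISGF3, stood at 8.13, 8.37 and 8.32 with control siRNA, against 7.35, 7.36 and 7.39 with control precursor (1.87-fold higher, adjusted p 1.90e-05). IFI6 (0.83), IFI44 (0.69), STAT2 (0.47) and IFITM2 (0.46) were higher. IRF1, which NF-kB also drives, stood at 7.30, 7.33 and 7.14 with control siRNA, against 8.61, 9.04 and 9.26 with control precursor (3.28-fold lower, adjusted p 8.72e-05). Of 15 small RNA pathway genes 2 were higher and 2 lower (26.7% called). AGO2, the slicing Argonaute (-0.51), and DGCR8 of the Microprocessor (-0.37) were lower, and the uridylyltransferase TUT7 (0.67) and the export GTPase RAN (0.64) were higher. DGCR8 was not called with median scaling (adjusted p 0.0908).

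**Figure D4:**
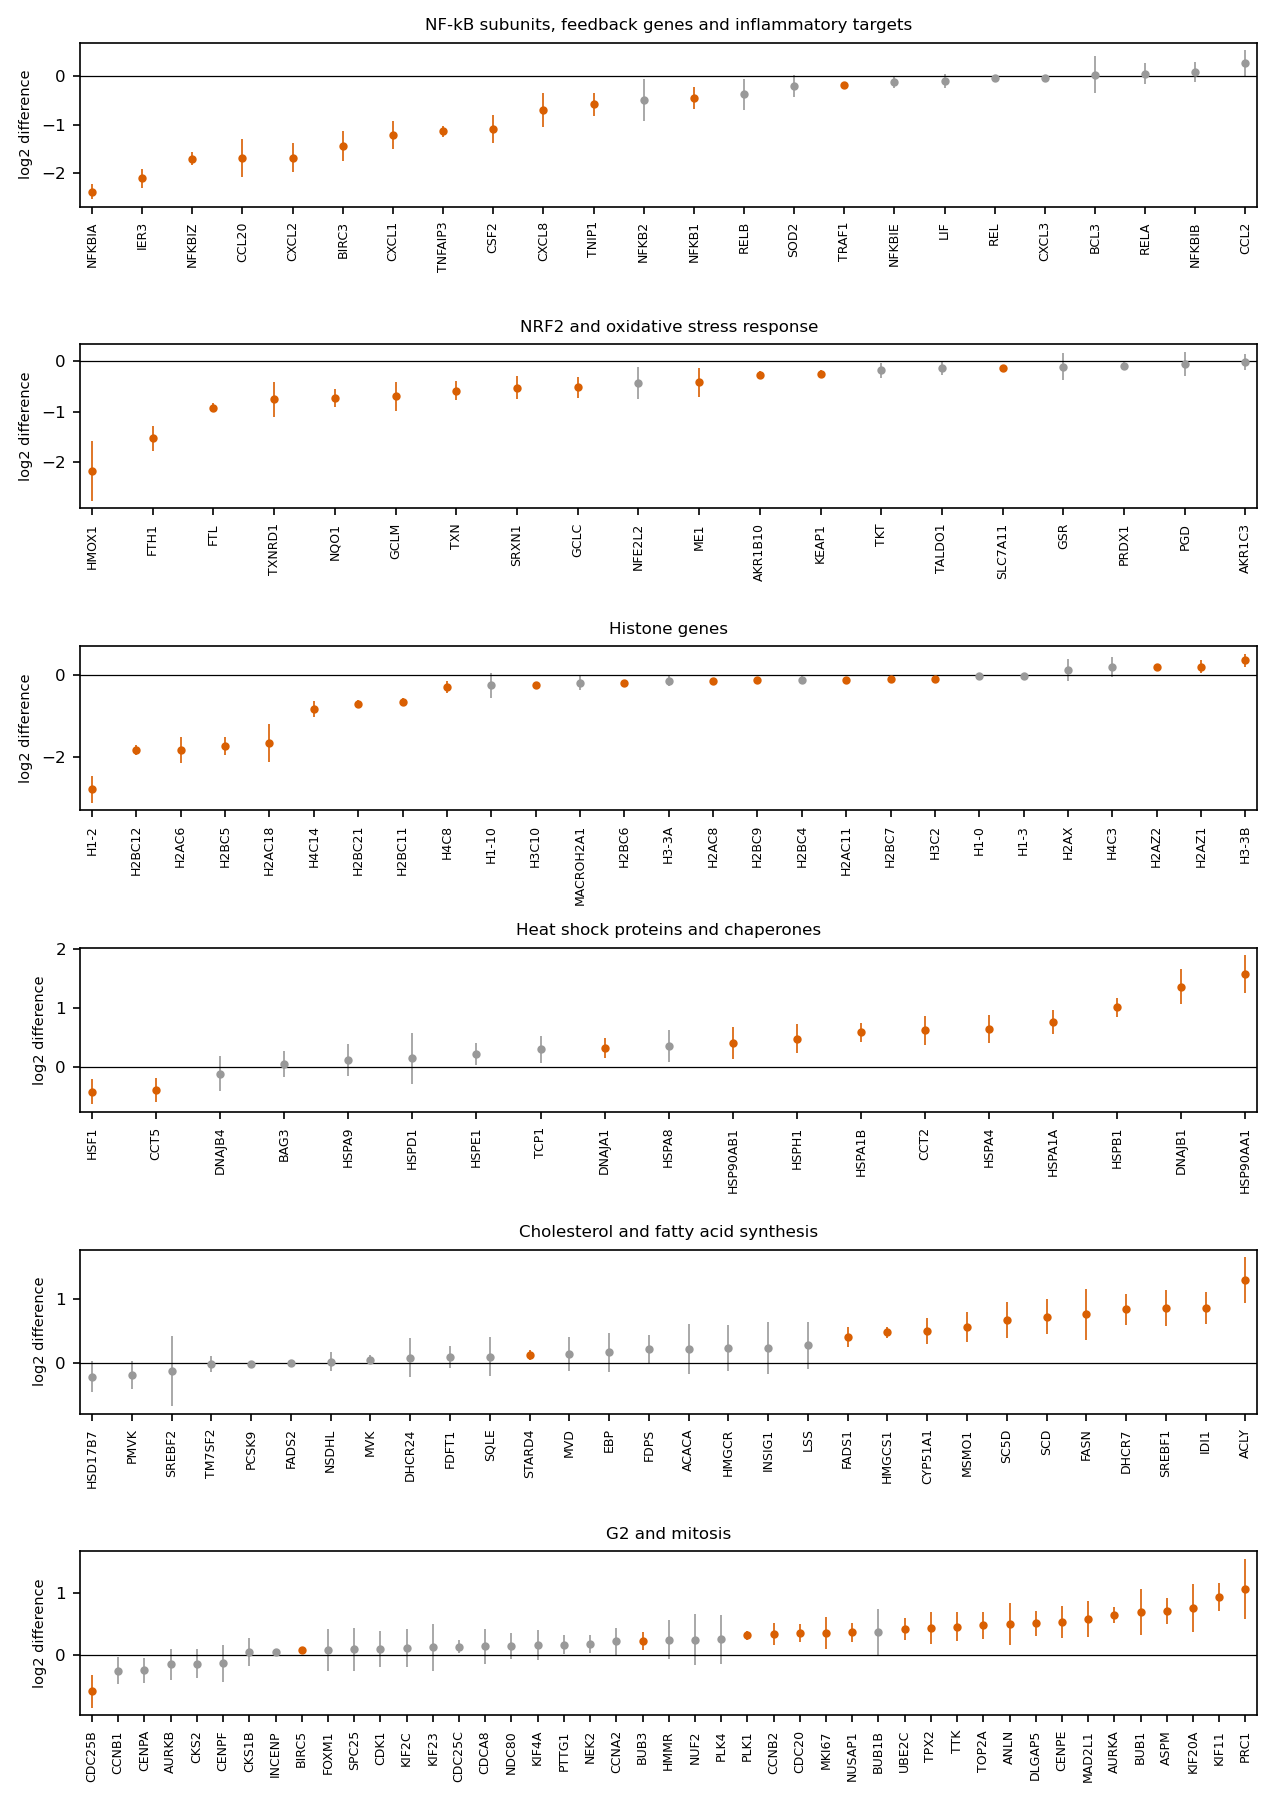
Log2 difference, control siRNA minus control precursor (y axis), of tested members of 6 gene lists, ordered by size and without 2 members that are not reported here, with the 95% interval from the linear model as bars. Orange members had an adjusted p under 0.05 and grey ones did not. NFKBIA at -2.38, HMOX1 at -2.18 and H1-2 at -2.81 lie at the low ends, and HSP90AA1 at 1.57, ACLY at 1.30 and the gene PRC1 at 1.07 at the high ends.

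Chromatin genes showed single large differences rather than a shared direction. HDAC1, a histone deacetylase, stood at 11.85, 11.96 and 11.88 with control siRNA, against 10.75, 10.77 and 10.80 with control precursor (2.17-fold higher, adjusted p 9.18e-06). DNMT1, the maintenance DNA methyltransferase, stood at 12.38, 12.58 and 12.43 with control siRNA, against 11.58, 11.69 and 11.54 with control precursor (1.81-fold higher, adjusted p 1.40e-05). The arrays of the groups lay apart for both, as for 47.9% of all genes tested. Of 19 deacetylases, DNA methyltransferases and demethylases tested, 3 were higher and 1 lower (21.1% called, against 28.3% of all genes tested). Of 20 Polycomb repressive complex 1 genes, 3 were higher and 4 lower (35% called). Besides CBX6, KDM2B (-0.75) and RYBP (-0.73) were lower and RING1 (0.38) was higher. HOX genes gave 3 higher and 1 lower of 21 (19% called), with differences from -0.18 to 0.65. Of them 0 were lower when any 1 of the 6 replicates was left out. Hypoxia and glycolysis genes gave 6 higher and 4 lower of 31 (32.3% called). The prolyl hydroxylase P4HA2 (1.06), HIF1A (0.98) and hexokinase HK2 (0.88) were higher and the glucose transporter SLC2A1 (-0.59) was lower. Small GTPases gave 3 higher and 7 lower of 38 (26.3% called), with RHOB (-0.93) and RAC1 (-0.87) lower. Of these, 3 were lower with median scaling, and the higher ones numbered 0 without control precursor replicate 3, 1 without control siRNA replicate 3 and 5 without control siRNA replicate 1. Actin-binding genes gave 7 and 2 of 31 (4 higher without control siRNA replicate 1 or 3 or control precursor replicate 1), with ARPC5 (0.73) higher. Of the actin-binding genes 29% were called, near the share of all genes tested.

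Genes often used as references were not all level. Of 18 tested, 2 were higher and 4 lower. The called share was 33.3%, against 28.3% of all genes tested and 36.7% in the brightest of 5 brightness bins. The lower ones numbered 2 when any 1 of the 6 replicates was left out, with median scaling and with the replicate number as a block. PPIA stood at 9.26, 9.24 and 9.33 with control siRNA, against 10.12, 10.10 and 10.09 with control precursor (1.77-fold lower, adjusted p 0.00199). TFRC (-0.81), TBP (-0.27) and B2M (-0.21) were lower, and IPO8 (0.63) and YWHAZ (0.53) higher. TBP was not called when any 1 of the 6 replicates was left out.

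Many defining markers of other cell types were undetected, others were detected on part of the arrays, and some less specific ones were detected on all. Of 9 leukocyte markers, CD3E, CD14, CD52 and CSF1R were detected on none of the 6 arrays, and of the 4 tested CD68 (0.69) was higher and LCP1 (-0.11) lower. CORO1A, detected on no control precursor array, was at least 1.06-fold higher. The fibroblast markers COL1A1, COL1A2, COL3A1, DCN, LUM and PDGFRA, the erythroid markers HBB and ALAS2 and the endothelial markers VWF and CDH5 were detected on none. The leukocyte marker PTPRC and the endothelial marker PECAM1 were each detected on 2 control siRNA arrays and 1 control precursor array. CLDN5 was detected on 2 arrays of each control, and TEK on 2 control siRNA arrays alone. The erythroid marker HBA1 was detected on 3 control siRNA arrays and 1 control precursor array. KDR was detected on 1 control precursor array and PDGFRB on 1 control siRNA array. Of 4 endothelial markers tested ENG was higher (0.90), and of 5 neuronal markers TUBB3 (1.47) and SNAP25 (0.35). Summed linear levels of the tested leukocyte markers were 4657 to 5038 with control siRNA, against 3063 to 3280 with control precursor. Those of the neuronal markers were 3068 to 3416 with control siRNA, against 1970 to 2025 with control precursor. Those of the erythroid markers, TFRC included, were 7367 to 7921 with control siRNA, against 12012 to 13728 with control precursor. Their part in the results was not tested. ENG, TUBB3 and SNAP25 were chosen after their values were seen.

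Few genes went from detected to undetected. In all 108 genes were detected on all 3 control siRNA arrays and no control precursor array, and 44 of them were called. Of all genes tested 28.3% were called. A split by detection in 1 control alone itself favours a difference. The largest bounds were for IRS1, at least 1.20-fold higher, and ST3GAL5, at least 1.17-fold higher. In turn 87 genes were detected on all 3 control precursor arrays and no control siRNA array, and 33 were called. CSF2 stood at 6.80, 6.79 and 6.80 with control siRNA, against 7.67, 7.70 and 8.27 with control precursor, at least 2.10-fold lower (adjusted p 0.000292). The 4 other genes named in this direction had bounds of 1.12-fold to 1.17-fold. They include NME2, which the files list as undetected with control siRNA at a log2 intensity of 12.56, so its detection p-value does not follow its signal.

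The treated arrays show where the genes stood on each chip beyond the controls. For the 254 genes called and at least 2-fold apart, the EZH2 siRNA arrays, on the chip of the control siRNA, had a mean nearer the control siRNA for 228 (89.8%). The miR-101 arrays, on the chip of the control precursor, had a mean nearer the control siRNA for 160 (63.0%) and nearer the control precursor for 94. For 147 genes (57.9%) both treated groups were nearer the control siRNA, some of them with treated means between the controls. GFPT2, for example, averaged 12.38 with control siRNA, 11.37 with EZH2 siRNA and 11.50 with miR-101, against 9.96 with control precursor. For 81 (31.9%) the groups divided by chip. Of all 3823 calls, 43.0% had both treated groups nearer the control siRNA and 31.0% divided by chip. RDH11, PJA2, RDX and SNRPC are of the first kind: RDH11 averaged 11.99 with control siRNA, 11.99 with EZH2 siRNA and 12.13 with miR-101, against 9.77 with control precursor. COXFA4L3, HMOX1 and ADM are of the second kind: HMOX1 averaged 8.41 with control siRNA and 8.49 with EZH2 siRNA, against 10.59 with control precursor and 10.72 with miR-101. Treatment also separates these arrays, so a chip effect was not isolated.

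Between EZH2 siRNA and miR-101, which share no array with the controls, 41.9% of all genes were called, 20.1% higher and 21.8% lower with EZH2 siRNA. Of the 254 genes, 105 were called in the direction of the controls and 50 in the reverse direction. Of all 3823 calls, 35.7% were called in the direction of the controls and 22.3% in the reverse direction. Of the 13 lower NF-kB genes 10 were called lower again and 0 higher. Of the 22 called G2 and mitosis genes 21 were called with the same sign and 1 opposite, with a median of 1.08 over the list. The S phase list also had a median of 1.08 here, against 0.06 between the controls, and gave 5 with the same sign and 4 opposite. The histone list gave 15 with the same sign and 1 opposite of 19, and the NRF2 list 7 and 2 of 14. The lipid list gave 3 with the same sign and 5 opposite of 12, the metalloproteinase list 2 and 4 of 9, and heat shock genes 4 and 1 of 12. MMP1, higher with control siRNA than with control precursor, had a difference of -3.96 here, and SERPINB2 one of -4.10.

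**Figure D5:**
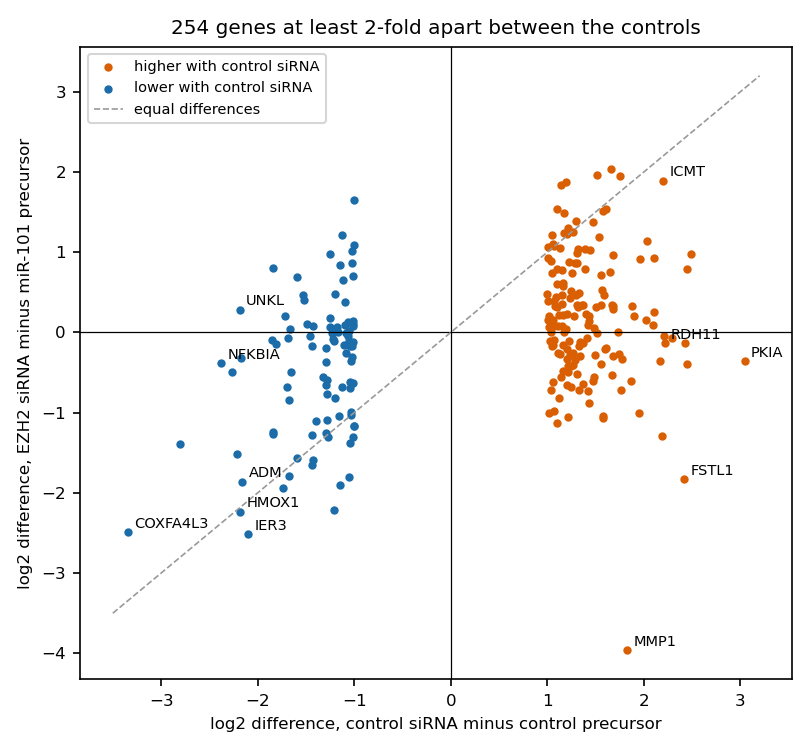
Each point is 1 of the 254 genes called and at least 2-fold apart between the controls: the x axis gives the log2 difference control siRNA minus control precursor and the y axis the log2 difference EZH2 siRNA minus miR-101 precursor, both siRNA chip minus precursor chip. Points near the dashed line differ equally in both, as HMOX1 does (-2.18 and -2.23), and points near the horizontal line differ between the controls alone, as RDH11 does (2.21 and -0.14).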

How the data were processed

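RNA of 12 samples was read on Illumina bead arrays in 1 colour. The raw table that the authors deposited lists mean bead intensity and detection p-values for every probe, without normalization, per the file headers. BeadStudio is named in the submitters' processing notes, with no settings. The authors' deposited value table, an alternative here, also holds intensity values, and its sorted values equal quantile-normalized raw signals within 3.33e-06. Replicate numbers 1 to 3 come from the titles.

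The neqc function corrected the background, normalized by quantiles and took log2 (limma 3.58.1, R 4.3.3; offset 16). Probes with a detection p under 0.05 on at least 3 arrays were kept (17844). The brightest probe stood for a gene (13528 genes). Probes were named by RefSeq accession (18886), current symbol (1721), older symbol (854) or the file's symbol (7094). A linear model with 4 group means was fitted to 12 arrays (lmFit, eBayes; 8 residual degrees of freedom), tested two-sided, with Benjamini-Hochberg adjustment over all genes. Differences are control siRNA minus control precursor in log2 units, and the offset shrinks those of dim genes. Where a group never detected a probe, the fold is a bound against the lowest detected signal.

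The members and the 43 lists were chosen with earlier results of these data known. Named genes were EZH2, the 15 largest rises and falls among called, detected and non-overlapping genes, up to 5 called members per list with at least 3 calls, and up to 5 genes each way detected in 1 control alone. Further list members are named to complete a list and were chosen after their values were seen. Data were simulated with 13528 genes, 200 of them changed between the controls, and noise independent between arrays. The fit recovered 77% of genes changed by 0.5 and 94% of those changed by 1 (log2), with 15 false calls. Far more genes were called in the real data, and no chip effect was simulated, so these shares need not hold for them. Some genes are not reported here by name. Alternatives changed the arrays fitted, background, scaling, filter, probe choice, weights and replicates.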

Additional observations from a re-analysis of the deposited data

How the results depend on the processing

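The count of genes past the threshold was 3823 and lay between 2868 (median scaling) and 5090 (array weights) over the alternatives that keep all replicates, and between 2839 and 3247 when a replicate was left out. The count at least 2-fold apart was 254 and lay between 207 and 298, and between 239 and 276 when a replicate was left out. The count with an interval within 2-fold was 12835, and without a filter it was 24258 of 24961 genes, because more genes were tested. Among named genes, none that was called changed sign under the alternatives run. EZH2, which was not called, was at 0.10 with median scaling, 0.04 without control precursor replicate 1 and 0.00 without control precursor replicate 2, and was called under none of them. Of 3595 values of named genes under the alternatives, 3493 stayed on their side of the threshold and 102 lost their call, 23 of them with median scaling; among the genes most affected were SNAI2, HOXD9, KRT18 and TBP. Median scaling moved the share of higher calls from 49.7% to 59.8% and the median of all genes to -0.04, and the cause was not tested. Replicate numbers, which are also positions on the chip, did not pair the samples: deviations of same-numbered arrays correlated at -0.41, 0.28 and -0.36, and not every array correlated best with its own number. With the replicate number as a block 3917 genes were called, 3597 of them shared with the fit without it. Dim genes limit the comparison: in the dimmest of 5 brightness bins 3.22% were called.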

Other observations

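Probes without a gene name were left out of the comparison. Among 3127 such probes that passed the detection filter, 97 were higher and 166 lower with control siRNA in a fit over all passing probes (8.41%), against 26.8% of 14717 named probes. At least 2-fold differences were seen in 5 higher and 3 lower unnamed probes.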
